A study of Sus scrofa with 32 samples.

Results

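Natural killer (NK) cells of pig blood were the barcodes of the 2 libraries of peripheral blood mononuclear cells (PBMCs) that carried transcripts of CD2, an adhesion receptor of T and NK cells, and of KLRK1, the receptor NKG2D, and no transcript of a set of genes that mark other blood cells. The members were chosen by the measured counts of these genes in each cell, so their levels are given as a description alone. A barcode first had to pass the study's minimum of UMIs (unique molecular identifiers, each counting 1 captured transcript), hold at least 550 genes and stay under the study's limit for mitochondrial UMIs. The shallowest member held 1252 UMIs in pig 1 and 1271 in pig 2, and the highest mitochondrial share was 7.81% and 11.4%. Among these barcodes, NK cells had at least 1 UMI each of CD2 and KLRK1 and 0 UMIs of CD3E, CD4, CD8B and TRDC, which encode parts of the T cell receptor complex and its co-receptors, of CD79B, a chain of the B cell receptor, and of SIRPA, a receptor of myeloid cells. In all, 1087 cells met this gate, 421 from pig 1 and 666 from pig 2, out of 13243 blood cells that passed the filters (8.21%) and 48629 cells in all 8 libraries. They were set against CD8 αβ T cells (at least 1 UMI of CD3E and of CD8B) and γδ T cells (at least 1 UMI of CD3E and of TRDC) of the same blood, and against ileal cells that met the same gate.

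The study profiled single cells of 2 untreated pigs of mixed breed at 7 weeks of age, pig 1 female and pig 2 male, with 4 libraries from each. Blood cells came from density separation tubes. Ileal cells came from dissections with Peyer's patches (PP), without them (non-PP) and of the whole cross section (whole ileum), were released from epithelium, lamina propria and submucosa together, and were enriched for live lymphocytes. The pig was the replicate throughout. Comparisons within blood thus rested on 2 animals of different sex, and their p-values measured the spread between these 2 pigs. Between blood and ileum this holds by the labels alone, since 1 ileal library went against its label, as described below.

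NK cells are innate lymphocytes that kill infected or transformed cells without a rearranged antigen receptor. They carry perforin, granzymes and granulysin in granules and release them when signals from activating receptors exceed those from inhibitory ones. Most activating receptors have no signalling tail of their own and pair with small membrane adaptors: HCST (DAP10) carries NKG2D signals, TYROBP (DAP12) serves several lectin-like receptors, and FCER1G and CD247 serve the natural cytotoxicity receptors and the IgG receptor CD16, encoded by FCGR3A. Pig NK cells are usually recognised by CD16 and the CD8α chain in the absence of surface CD3.

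The share of blood cells that met the gate was 6.53% in pig 1 (95% Clopper-Pearson interval 5.94 to 7.17, 421 of 6443 cells) and 9.79% in pig 2 (9.10 to 10.53, 666 of 6800 cells). These intervals cover counting error only. NK cells were the shallowest of the 5 blood classes in pig 1, and lay beside γδ T cells at the lower end in pig 2. Their median was 1882 and 2695.5 UMIs in pig 1 and pig 2, against 3890 and 4369 in CD8 αβ T cells, 3014 and 2697.5 in γδ T cells, 3462 and 4457 in B cells and 6904 and 7898 in monocytes. They gave 1092958 and 2012821 UMIs in sum. The part of this depth gap in the results was not tested, and fewer transcripts per cell and fewer cells with a transcript cannot be told apart in summed counts.

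The gate cut through cells that lay close to its edges. KLRK1 stood at exactly 1 UMI in 92 members of pig 1 and 65 of pig 2, and CD2 at exactly 1 UMI in 220 and 292. A further 170 and 377 cells met every criterion but had no KLRK1 UMI. In these just-excluded cells the summed level of GNLY, which encodes the granule protein granulysin, was 5311 and 2477 CPM (UMIs of the gene scaled to a total of 1000000 UMIs), while in members with exactly 1 KLRK1 UMI it was 32660 and 43240 CPM. Just-excluded cells also held 3851 and 2854 CPM of the myeloid lysozyme gene LYZ, against 195.5 and 82.45 CPM in all members. Cells with exactly 1 CD3E UMI that met every other criterion had 25320 and 26270 CPM of GNLY. On the CD3E side, 955 cells of pig 1 and 145 of pig 2 were kept out by CD3E alone, and among blood cells with a CD8B UMI, CD3E was at 0 UMIs in 59 of 545 (10.8%) in pig 1 and 113 of 866 in pig 2.

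The name given by the gate was checked against genes that the gate did not use. Shares of cells with a UMI were taken after thinning every cell to the filter's minimum of UMIs, beside the same share in blood B cells and monocytes. GNLY was found in 93.1% and 97.5% of NK cells in pig 1 and pig 2, against 33.4% and 27.6% of B cells and 35.0% and 28.3% of monocytes. FCGR3A (CD16) was found in 90.3% and 89.5% of NK cells and in 20.6% and 24.8% of B cells, while monocytes, which also use CD16, stood at 97.3% and 96.0%. TYROBP was found in 52.5% and 67.9% of NK cells and 6.01% and 8.52% of B cells. For CX3CR1, the receptor for fractalkine on circulating killer cells, the shares were 37.5% and 35.7% of NK cells against 0.395% and 0.426% of B cells. NCR1, which encodes the natural cytotoxicity receptor NKp46, was found in 6.89% and 9.01% of NK cells, 0% and 0.107% of B cells and 0% of monocytes in both pigs. Thus receptors and granule genes of killer lymphocytes stood above the B cell share in both pigs.

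Some genes of T cells went against the name. CD3G, which encodes the γ chain of CD3, was found in 56.1% and 60.4% of NK cells after thinning, against 2.29% and 1.07% of B cells, and CD3D, the δ chain, in 16.9% and 21.9% against 0.316% and 0.533%. In CD8 αβ T cells the same shares were 56.4% and 53.4% for CD3G and 22.3% and 19.6% for CD3D. The paper reports CD3G in some ileal innate lymphoid cells that largely lacked CD3E, so CD3G alone does not decide the name. By contrast, CD5, a co-receptor of mature T cells, was found in 1.66% and 0.901% of NK cells, against 12.7% and 16.4% of CD8 αβ T cells and 0.553% and 0.426% of B cells. A CD3D UMI was present in 114 of 421 members in pig 1 (27.1%) and 278 of 666 in pig 2 (41.7%) before thinning. FCER1G was detected in 93.9% and 97.5% of members with CD3D and in 92.5% and 98.2% of members without it. CD5 was detected in 5.26% and 1.80% of members with CD3D and in 1.30% and 1.29% of members without it. Adding CD3D, CD5 and CD6 at 0 UMIs to the gate left 685 of the 1087 members (63.0%).

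**Figure D1:**
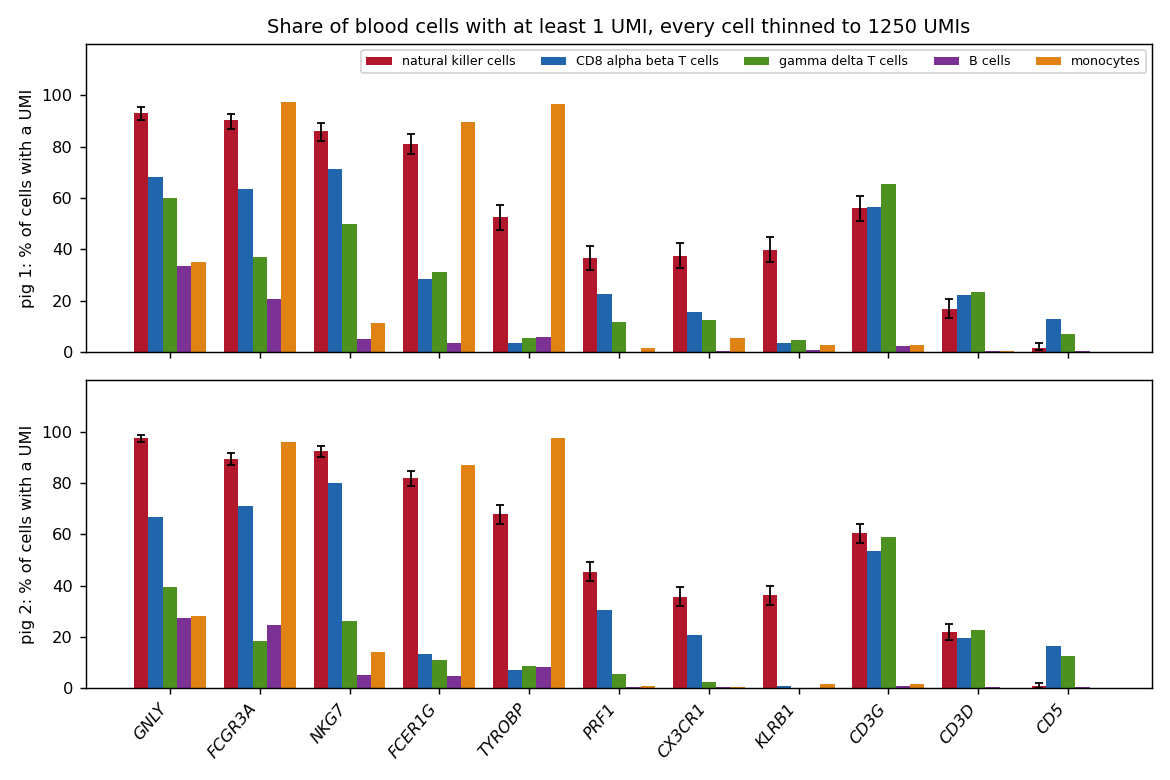
Share of cells with at least 1 UMI (y axis, percent) of 11 genes (x axis) in 5 blood cell classes after thinning each cell to the minimum UMI count of the filter, with pig 1 above and pig 2 below; black bars on NK cells are 95% Clopper-Pearson intervals. GNLY, FCGR3A and NKG7 were found in most NK cells of both pigs, CD3G in 56.1% and 60.4%, and CD5 in 1.66% and 0.901%.

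Members also carried transcripts of other cells. HBB, the haemoglobin β chain of red cells, reached 29880 CPM in NK cells of pig 1 and 3383 CPM in pig 2, against 15040 and 1599 CPM in CD8 αβ T cells. After thinning, an HBB UMI was found in 79.3% and 33.0% of NK cells and in 75.3% and 31.4% of B cells. The 12 monocyte and dendritic cell markers summed to 580.1 CPM in pig 1, where S100A8, CD163 and CD68 were at 0, and to 375.6 CPM in pig 2, where none was. CST3 was the most abundant of them in both. The 5 B cell markers summed to 13.7 and 5.96 CPM, with PAX5 at 0 in both pigs. A UMI of the platelet chemokine PPBP was present in 29 and 120 members, at least 3 UMIs of LYZ in 6 and 4, and over 5% of UMIs from HBB in 13 and 4. Leaving out such cells kept 375 and 540 members. A Scrublet doublet score above 0.25 was given to 1 and 5 members, which were kept. Between the libraries, 1 barcode was shared by members from pig 2 blood and by cells of the same gate in the non-PP library of pig 2.

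A library outside blood went against its label. EIF1AY, a gene of the Y chromosome, had 0 UMIs in PBMCs and PP of the female pig 1 and 2 in its non-PP library, but 843 in the library labelled whole ileum pig 1, within the range of 468 to 1297 UMIs in libraries of the male pig 2. That library gave 299 of the 412 ileal cells of pig 1 that met the gate (72.6%), so counts of ileal calls are given with and without it, and so are the differences of the ileal genes described here with values that moved by over 1.5 times. The blood libraries were not touched by this.

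For tests, UMIs were summed per pig and class and compared with edgeR's quasi-likelihood test over 8313 genes in 1 fit of 6 sums, with p-values adjusted by the Benjamini-Hochberg method and a threshold of 0.05. Levels are given as CPM after TMM scaling, in the order pig 1, pig 2, and differences as log2 fold changes with their standard errors (SE) over 2 pigs per class. Where values of classes are said not to overlap, this is a description alone. In random order, 2 against 2 values separate with a probability of 0.333, and the share of all tested genes without overlap is not given here. Against CD8 αβ T cells, 58 genes were higher (0.698% of genes tested) and 16 lower (0.192%) in NK cells, 74 in all (0.890%). Against γδ T cells, 67 were higher (0.806%) and 57 lower (0.686%), 124 in all (1.49%). At an unadjusted p under 0.05 there were 1504 genes against CD8 αβ T cells and 1344 against γδ T cells, of the 8313 tested. Both comparisons share the NK sums. Among the calls, CD6, IL21R, JAML and RHEX were low in both NK sums and passed the filter on low counts through T cell sums. This fixed their direction against those T cells, so their p-values are a description alone. With the pig as a block, since the sums of a pig came from the same animal, the calls rose to 669 (397 higher, 272 lower) and 633 (364 higher, 269 lower), and these held all 74 and all 124. DESeq2 called 321 genes against CD8 αβ T cells, 210 higher and 111 lower, a less one-sided split than that of edgeR. The calls also rested on single sums: against CD8 αβ T cells, 19 genes were called without NK cells of pig 1 (17 of them among the 74), 6 without those of pig 2 (all 6), 26 without CD8 αβ T cells of pig 1 (18) and 4 without those of pig 2 (3). Without γδ T cells of pig 1 or pig 2, 356 and 342 were called, with all 74 in each. Against γδ T cells, 12 and 8 genes were called without NK cells of pig 1 or pig 2 (9 and 8 of them among the 124), and 386 and 44 without γδ T cells of pig 1 or pig 2 (119 and 37).

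Among activating receptors and their adaptors, 3 genes were higher and 1 lower than in γδ T cells. HCST, on chromosome 6 at 45304744 to 45309048 (Sscrofa11.1) directly beside TYROBP at 45309199 to 45312562, stood at 653.6 and 708.5 CPM in NK cells, 304.8 and 274.9 CPM in CD8 αβ T cells and 280.1 and 203.3 CPM in γδ T cells. Both NK values lay above all T cell values. The difference was called against γδ T cells (log2 1.49 ± 0.20, adjusted p = 0.0335), while against CD8 αβ T cells it missed the threshold (log2 1.23 ± 0.20, adjusted p = 0.0509; 0.00706 with the block). FCGR3A, on chromosome 4 at 88948357 to 88956513, stood at 2836 and 2137 CPM in NK cells, 1137 and 1363 CPM in CD8 αβ T cells and 703.4 and 472.5 CPM in γδ T cells. It was higher than in γδ T cells (log2 2.08 ± 0.25, adjusted p = 0.0298) and was not called against CD8 αβ T cells (log2 0.99 ± 0.25, adjusted p = 0.105; 0.0278 with the block). CD226 (DNAM-1), a receptor for nectin-family ligands on stressed cells, was also higher than in γδ T cells, at 116.4 and 141.7 against 42.14 and 26.58 CPM (log2 1.90 ± 0.32, adjusted p = 0.0453).

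The adaptors FCER1G and TYROBP differed more in size but also more between pigs. FCER1G stood at 1407 and 1426 CPM in NK cells, 329.2 and 148.4 CPM in CD8 αβ T cells and 461.7 and 207.7 CPM in γδ T cells. TYROBP stood at 698.3 and 936.6 CPM in NK cells, 50.59 and 145.2 CPM in CD8 αβ T cells and 76.08 and 272.7 CPM in γδ T cells. In each case the NK values did not overlap those of either T cell class. edgeR called neither without the block (adjusted p = 0.0628 and 0.0848 for FCER1G and 0.0887 and 0.164 for TYROBP against CD8 αβ and γδ T cells), and both with it (adjusted p = 0.00296, 0.00537, 0.00213 and 0.00500). DESeq2 called FCER1G in both comparisons and TYROBP against CD8 αβ T cells. CD247, the ζ chain that NK cells share with the T cell receptor complex, ran the other way: 251.4 and 203.4 CPM in NK cells against 591.1 and 969.1 CPM in γδ T cells (log2 -1.78 ± 0.27, adjusted p = 0.0396).

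NCR1 stood at 56.80 and 82.95 CPM in NK cells, 8.293 and 1.494 CPM in CD8 αβ T cells and 7.086 and 1.477 CPM in γδ T cells, with no overlap. Its differences of log2 3.98 ± 0.74 and 3.94 ± 0.75 were called by edgeR with the block (adjusted p = 0.00918 and 0.00919, against 0.0628 and 0.0644 without it) and by DESeq2. SLAMF7, a receptor of the SLAM family, lay at 14.90 and 11.85 CPM in NK cells, below the 30.27 and 73.45 CPM of CD8 αβ T cells and the 57.06 and 95.48 CPM of γδ T cells, and was called by edgeR with the block (adjusted p = 0.0147 and 0.00547). Of the 14 activating receptors and adaptors tested, edgeR called 0 against CD8 αβ T cells. There 10 had an unadjusted p under 0.05 (1504 of 8313 over all genes), DESeq2 called 6 higher and 1 lower, and the block gave 7 and 1. Against γδ T cells 3 were higher and 1 lower (9 and 2 with the block). The list's median log2 differences were 1.11 and 1.99, against -0.01 and -0.01 over all genes.

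The lectin-like receptors are encoded in the NK gene complex on chromosome 5. KLRB1 (CD161), at 62244787 to 62257691, stood at 970.2 and 722.3 CPM in NK cells, 51.83 and 10.46 CPM in CD8 αβ T cells and 74.59 and 10.83 CPM in γδ T cells. KLRG1, an inhibitory receptor for cadherins at 62506001 to 62523969, stood at 475.8 and 373.7 CPM in NK cells, 172.9 and 100.8 CPM in CD8 αβ T cells and 182.7 and 60.54 CPM in γδ T cells. In neither gene did NK values overlap those of T cells, and for KLRB1 the T cell values of the pigs differed several-fold. edgeR called both with the block (adjusted p = 0.00213 and 0.00300 for KLRB1, 0.0109 and 0.00689 for KLRG1; 0.0747, 0.0870, 0.165 and 0.141 without it), and DESeq2 called both in both comparisons. KLRK1, the gate gene of this complex at 61646691 to 61655386, which the gate required, stood at 1492 and 1438 CPM in NK cells, 571.8 and 83.66 CPM in CD8 αβ T cells and 819.7 and 95.48 CPM in γδ T cells. KLRC1 (NKG2A), an inhibitory receptor, stood at 449.7 and 386.1 CPM in NK cells, 210.6 and 18.92 CPM in CD8 αβ T cells and 170.1 and 39.37 CPM in γδ T cells (adjusted p = 0.394 and 0.407; 0.0438 and 0.0499 with the block), and DESeq2 called it in neither comparison. KLRD1 (CD94), the partner of KLRC1, was almost undetected, with 0.9311 CPM in NK cells of pig 1 and 0 in pig 2. Of 6 inhibitory and dual receptors tested, edgeR called 0 in either comparison. In each, 2 had an unadjusted p under 0.05 (1504 and 1344 of 8313 over all genes) and DESeq2 called 2 higher. With the block 4 were higher than in CD8 αβ T cells and 3 than in γδ T cells. TIGIT and PVRIG, which bind nectin-family ligands, had NK values within or below the range of T cells.

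**Figure D2:**
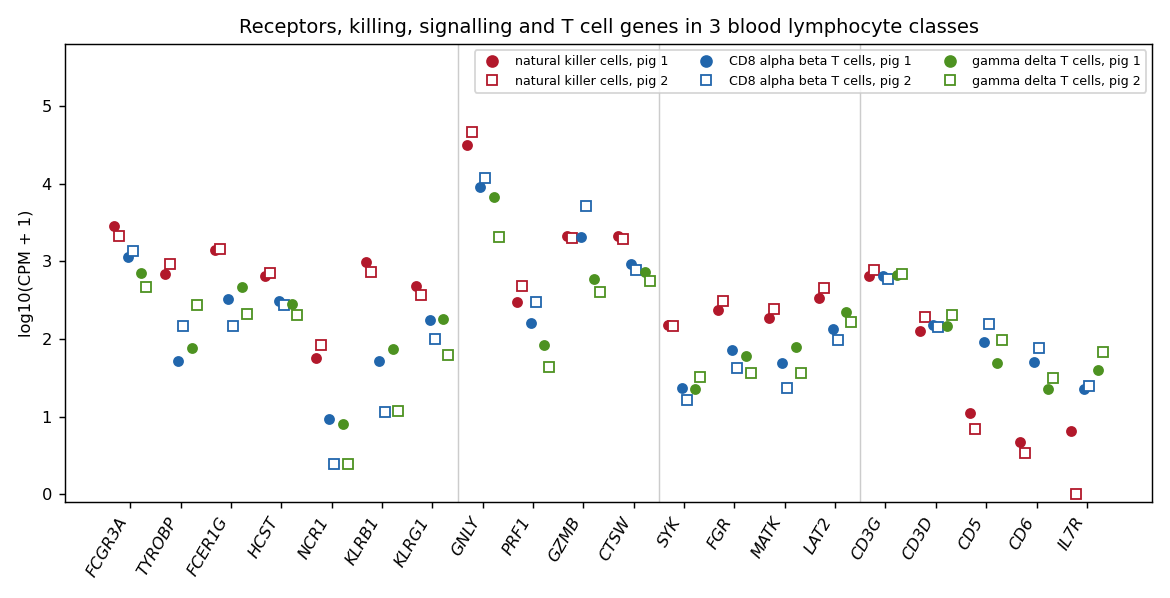
Level of 20 genes in NK cells (red), CD8 αβ T cells (blue) and γδ T cells (green) of blood as log10(CPM + 1), with filled circles for pig 1 and open squares for pig 2; vertical lines separate receptors and adaptors, granule and killing genes, signalling genes and T cell genes. NK values of TYROBP, FCER1G, HCST, NCR1, KLRB1, SYK and FGR lay above all T cell values and CD5 and CD6 below them. CD3G lay slightly above CD8 αβ T cells and overlapped γδ T cells.

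The granule genes separated NK cells from γδ T cells more than from CD8 αβ T cells. CTSW, cathepsin W of cytotoxic lymphocytes, was called in both comparisons: it stood at 2114 and 1926 CPM in NK cells, 929.2 and 775.1 CPM in CD8 αβ T cells (log2 1.25 ± 0.20, adjusted p = 0.0481) and 738.8 and 561.1 CPM in γδ T cells (log2 1.64 ± 0.20, adjusted p = 0.0298). GNLY, on chromosome 3 at 59067327 to 59072034, stood at 31770 and 45760 CPM in NK cells, 9147 and 11880 CPM in CD8 αβ T cells and 6716 and 2076 CPM in γδ T cells, with no overlap between classes and NK cells highest in both pigs. It was called against γδ T cells (log2 3.14 ± 0.53, adjusted p = 0.0457) and, against CD8 αβ T cells, by edgeR with the block (log2 1.88 ± 0.51, adjusted p = 0.124; 0.0473 with the block) and by DESeq2. PRF1, perforin, stood at 295.2 and 477.9 CPM in NK cells against 82.05 and 42.82 CPM in γδ T cells (log2 2.63 ± 0.45, adjusted p = 0.0457). In CD8 αβ T cells PRF1 stood at 159.2 and 301.5 CPM, a range that overlapped the NK values. FASLG, a death ligand, and STX11, a syntaxin of granule release, were also higher than in γδ T cells (log2 2.57 ± 0.45, adjusted p = 0.0494, and log2 1.30 ± 0.21, adjusted p = 0.0425).

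Granzymes differed from granulysin in their order among the classes. GZMB stood at 2096 and 1986 CPM in NK cells and at 2072 and 5126 CPM in CD8 αβ T cells, overlapping ranges (adjusted p = 0.344), against 588.5 and 403.6 CPM in γδ T cells (adjusted p = 0.0684; 0.0186 with the block). GZMK, a granzyme of memory-like T cells, stood at 27.93 and 3.456 CPM in NK cells and 76.71 and 90.14 CPM in CD8 αβ T cells (adjusted p = 0.128; 0.0241 with the block). The files held 2 entries named GZMA whose reads the counting could have split, so both are uncertain. ENSSSCG00000016902 stood at 24.21 and 10.86 CPM in NK cells, 112.4 and 425.3 CPM in CD8 αβ T cells and 28.72 and 24.61 CPM in γδ T cells, while ENSSSCG00000016903 stood at 1013 and 1154 CPM, 1105 and 2178 CPM and 538.2 and 140.3 CPM. SRGN, serglycin, the proteoglycan that packs granule proteins, was lower in NK cells than in γδ T cells, at 456.2 and 374.2 against 1184 and 1900 CPM (log2 -1.89 ± 0.27, adjusted p = 0.0346). Of 20 granule and killing genes tested, 1 was higher than in CD8 αβ T cells (4 higher and 2 lower with the block), and 5 were higher and 1 lower than in γδ T cells (11 and 1 with the block). The list's medians were log2 0.45 and 1.21.

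Among signalling genes next to the receptors, the kinases SYK and FGR were higher in NK cells in both comparisons. SYK, the kinase that docks on the phosphorylated tails of FCER1G and TYROBP, stood at 152.7 and 147.6 CPM in NK cells, 22.81 and 15.69 CPM in CD8 αβ T cells (log2 2.98 ± 0.27, adjusted p = 0.0109) and 22.00 and 31.50 CPM in γδ T cells (log2 2.49 ± 0.26, adjusted p = 0.0187). FGR, a Src-family kinase, stood at 232.8 and 310.1 CPM in NK cells, 72.15 and 41.58 CPM in CD8 αβ T cells (log2 2.27 ± 0.35, adjusted p = 0.0471) and 59.67 and 35.93 CPM in γδ T cells (log2 2.50 ± 0.36, adjusted p = 0.0350). For both kinases the NK values lay several-fold above every T cell value. LAT2, a transmembrane adaptor, and PTPN6 (SHP-1), the phosphatase recruited by inhibitory receptors, were higher than in CD8 αβ T cells, at 335.2 and 457.2 against 133.5 and 96.61 CPM (log2 1.79 ± 0.26, adjusted p = 0.0393) and at 406.0 and 615.7 against 194.5 and 174.5 CPM (log2 1.47 ± 0.23, adjusted p = 0.0489).

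Other kinases and adaptors of T cell receptor signalling did not share 1 direction. ZAP70, the kinase of the T cell receptor complex, stood at 86.59 and 38.02 CPM in NK cells, 133.5 and 151.4 CPM in CD8 αβ T cells (adjusted p = 0.156; 0.0584 with the block) and 208.5 and 270.7 CPM in γδ T cells (adjusted p = 0.0621; 0.0128 with the block). LAT, the adaptor that ZAP70 phosphorylates, stood at 79.14 and 79.00 CPM in NK cells and 140.6 and 216.4 CPM in CD8 αβ T cells (adjusted p = 0.102; 0.0142 with the block). BLK, a Src-family kinase of γδ T and B cells, was lower than in γδ T cells, at 21.41 and 36.54 against 120.5 and 277.6 CPM (log2 -2.74 ± 0.44, adjusted p = 0.0426), although when T cells were also required to carry CD2 and KLRK1 its difference was log2 0.06. In CD8 αβ T cells BLK stood at 5.805 and 5.727 CPM, below both NK values (log2 2.36 ± 0.51, adjusted p = 0.0777; 0.00740 with the block). LCK, the Src-family kinase of CD4 and CD8, stood at 420.8 and 429.0 CPM in NK cells, between the 502.1 and 501.5 CPM of CD8 αβ T cells and the 324.1 and 232.8 CPM of γδ T cells, and was called in neither comparison. Of 22 proximal signalling genes tested, 4 were higher and 0 lower than in CD8 αβ T cells (8 and 3 with the block), and 2 were higher and 1 lower than in γδ T cells (6 and 3 with the block). The list's medians were log2 0.36 and 0.18.

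Among T cell genes, CD3G and CD3D were not called in either comparison, while CD5 and CD6 were lower in NK cells in both. CD3G stood at 649.0 and 766.3 CPM in NK cells, 639.8 and 590.6 CPM in CD8 αβ T cells and 670.2 and 684.6 CPM in γδ T cells, so that both NK values lay above those of CD8 αβ T cells (log2 0.20 ± 0.16, adjusted p = 0.549) and on either side of those of γδ T cells (log2 0.06 ± 0.16, adjusted p = 0.906), and neither difference was called. CD3D stood at 127.6 and 192.6 CPM in NK cells, 150.1 and 143.7 CPM in CD8 αβ T cells and 148.1 and 200.8 CPM in γδ T cells, with overlapping values in all 3 classes. CD5 stood at 10.24 and 5.925 CPM in NK cells, 91.22 and 153.9 CPM in CD8 αβ T cells (log2 -4.00 ± 0.51, adjusted p = 0.0302) and 48.11 and 97.45 CPM in γδ T cells (log2 -3.23 ± 0.51, adjusted p = 0.0417). CD6, a related scavenger-type receptor, stood at 3.724 and 2.469 CPM, 49.76 and 76.19 CPM (log2 -4.40 ± 0.41, adjusted p = 0.0116) and 22.00 and 31.01 CPM (log2 -3.14 ± 0.43, adjusted p = 0.0343). CD5 and CD6 in NK cells lay below every T cell value, and their levels of 10.24 CPM and under stand beside CD3G at 649.0 CPM and above in the same cells.

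TRAT1, an adaptor that associates with the T cell receptor complex, ran against CD5 and CD6: it stood at 378.9 and 461.1 CPM in NK cells, above the 260.4 and 185.5 CPM of CD8 αβ T cells and the 188.7 and 200.8 CPM of γδ T cells (adjusted p = 0.0940 and 0.0658; 0.0300 and 0.0161 with the block). SIT1, an inhibitory adaptor of the T cell receptor, was lower than in γδ T cells, at 58.66 and 28.14 against 170.1 and 252.5 CPM (log2 -2.32 ± 0.37, adjusted p = 0.0417). CD8A, which was added to the genes described after its values had been seen, stood at 397.6 and 353.0 CPM in NK cells, 466.9 and 577.9 CPM in CD8 αβ T cells (adjusted p = 0.579) and 200.3 and 75.80 CPM in γδ T cells (adjusted p = 0.147; 0.0398 with the block). Of 13 T cell genes tested outside the gate, 0 were higher and 2 lower than in CD8 αβ T cells (1 and 6 with the block), and 0 were higher and 3 lower than in γδ T cells (2 and 4 with the block), with medians of log2 -1.18 and -0.41.

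**Figure D3:**
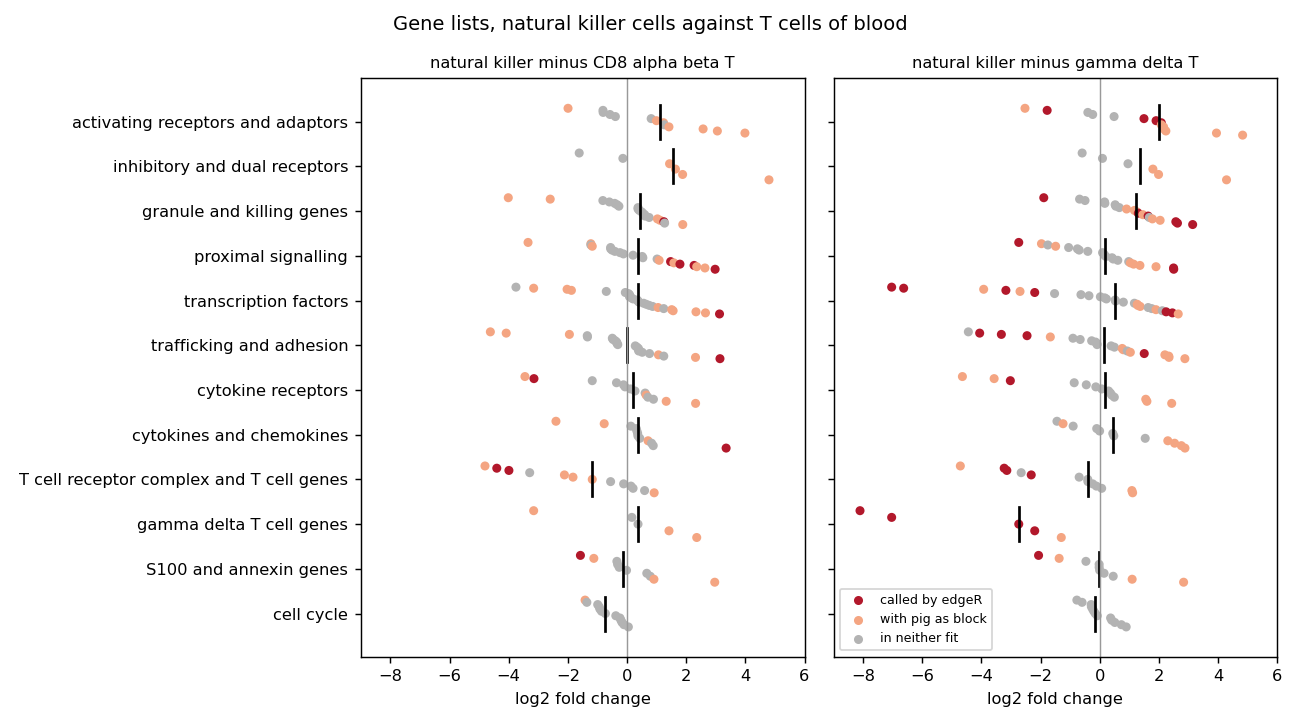
Log2 fold change (x axis) of each tested gene of 12 lists (y axis) between NK cells and CD8 αβ T cells on the left and γδ T cells on the right; each point is a gene, vertical bars are list medians, and colours give genes called, genes called by edgeR with the pig as a block but not without it, and genes called in neither fit. Activating receptors and adaptors have medians of 1.11 and 1.99, and γδ T cell genes a median of -2.74 against γδ T cells.

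NFIL3, which is needed early in NK cell development, was the only factor of the transcription factor list called in both comparisons: 64.24 and 81.46 CPM in NK cells against 9.122 and 7.719 CPM in CD8 αβ T cells (log2 3.13 ± 0.24, adjusted p = 0.00748) and 13.80 and 12.80 CPM in γδ T cells (log2 2.46 ± 0.24, adjusted p = 0.0143). ID2, which restrains E proteins in innate lymphocytes, stood at 908.7 and 1033 CPM in NK cells against 264.0 and 145.7 CPM in γδ T cells (log2 2.24 ± 0.29, adjusted p = 0.0322) and 352.4 and 308.0 CPM in CD8 αβ T cells (adjusted p = 0.0628; 0.00930 with the block). Its relative ID3 ran the other way, at 3.724 and 5.431 CPM in NK cells against 339.4 and 927.8 CPM in γδ T cells (log2 -7.04 ± 0.71, adjusted p = 0.0155). GATA3, TCF7 and MAF, regulators of T cell identity, were lower than in γδ T cells as well, GATA3 at 46.55 and 45.42 against 141.3 and 282.0 CPM (adjusted p = 0.0398) and TCF7 at 25.14 and 16.29 against 102.6 and 263.8 CPM (adjusted p = 0.0410).

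The T-box factors that drive killer programmes were called neither by edgeR, with or without the block, nor by DESeq2. Without a filter on low counts edgeR called TBX21, but not EOMES, in both comparisons. TBX21 (T-bet) stood at 176.9 and 232.5 CPM in NK cells, 127.3 and 117.3 CPM in CD8 αβ T cells and 105.2 and 25.59 CPM in γδ T cells, NK cells being highest in both pigs (adjusted p = 0.514 and 0.204). EOMES stood at 58.66 and 18.27 CPM, 50.17 and 20.42 CPM and 30.21 and 20.18 CPM, so that the pigs differed more than the classes. HOPX, an atypical homeobox gene of cytotoxic lymphocytes, and ZNF683 (Hobit) lay above all T cell values, HOPX at 820.3 and 1218 CPM in NK cells and at most 240.9 CPM in T cells, and were called by edgeR with the block (adjusted p = 0.0107 and 0.00919 for HOPX, 0.00213 and 0.0128 for ZNF683; 0.0697, 0.0658, 0.0857 and 0.273 without it). DESeq2 called HOPX in both comparisons and ZNF683 against CD8 αβ T cells. Of 26 factors tested, 1 was higher and 0 lower than in CD8 αβ T cells (6 and 3 with the block), and 2 were higher and 4 lower than in γδ T cells (7 and 6 with the block), with medians of log2 0.36 and 0.53.

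Genes for trafficking set NK cells apart by integrins and by the near absence of lymph node homing receptors. ITGAM (CD11b), an integrin of mature NK and myeloid cells, stood at 142.5 and 121.0 CPM in NK cells against 21.15 and 9.462 CPM in CD8 αβ T cells (log2 3.14 ± 0.44, adjusted p = 0.0367) and 37.29 and 19.20 CPM in γδ T cells (adjusted p = 0.0658; 0.00300 with the block). ITGAL (CD11a) was higher than in γδ T cells, at 221.6 and 239.0 against 94.73 and 67.43 CPM (2.835-fold, adjusted p = 0.0382). CCR7, which guides cells into lymph nodes, stood at 4.655 and 3.456 CPM in NK cells against 32.45 and 100.9 CPM in γδ T cells (log2 -4.06 ± 0.67, adjusted p = 0.0453) and 77.54 and 57.52 CPM in CD8 αβ T cells (adjusted p = 0.0524; 0.0117 with the block). S1PR1, the receptor for exit from lymphoid tissue, and GPR183, an oxysterol receptor, were lower than in γδ T cells too (log2 -2.46 ± 0.34, adjusted p = 0.0343, and log2 -3.33 ± 0.37, adjusted p = 0.0233).

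S1PR5, a sphingosine phosphate receptor of NK cells, stood at 270.9 and 270.6 CPM in NK cells, 60.54 and 48.55 CPM in CD8 αβ T cells and 59.67 and 12.80 CPM in γδ T cells. CX3CR1, on chromosome 13 at 23944386 to 23957567, stood at 357.5 and 355.0 CPM in NK cells, 128.1 and 172.8 CPM in CD8 αβ T cells and 122.0 and 17.23 CPM in γδ T cells. For both receptors the pigs were nearly equal in NK cells and lay above every T cell value. edgeR called neither without the block (adjusted p = 0.104 and 0.0684 for S1PR5, 0.402 and 0.172 for CX3CR1). With it, S1PR5 was called in both comparisons (adjusted p = 0.0150 and 0.00753) and CX3CR1 against γδ T cells (adjusted p = 0.0496, with 0.231 against CD8 αβ T cells). DESeq2 called S1PR5 in both comparisons, and edgeR without a filter on low counts called both receptors in both. Of 22 trafficking genes tested, 1 was higher than in CD8 αβ T cells (3 higher and 3 lower with the block), and 1 was higher and 3 lower than in γδ T cells (8 and 4 with the block), with medians of log2 -0.02 and 0.15.

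Of the cytokines, XCL1, a chemokine for cross-presenting dendritic cells, was higher than in CD8 αβ T cells, at 245.8 and 532.7 against 55.56 and 22.16 CPM (log2 3.35 ± 0.53, adjusted p = 0.0481), and stood at 74.59 and 60.54 CPM in γδ T cells (adjusted p = 0.0676; 0.0179 with the block). IFNG, the signature cytokine of NK cells, stood at 63.31 and 114.0 CPM in NK cells, 46.03 and 51.04 CPM in CD8 αβ T cells and 19.02 and 4.430 CPM in γδ T cells (adjusted p = 0.404 and 0.0658; 0.224 and 0.0150 with the block). CCL5, a chemokine of cytotoxic cells, stood at 25760 and 14310 CPM in NK cells and 15550 and 15730 CPM in CD8 αβ T cells, which overlapped. It was also found in 36.5% and 22.6% of thinned B cells. Of 12 cytokines tested, 1 was higher than in CD8 αβ T cells (2 higher and 2 lower with the block) and edgeR called 0 against γδ T cells. In the latter comparison 6 had an unadjusted p under 0.05 (1344 of 8313 over all genes), DESeq2 called 3 higher, and the block gave 4 higher and 1 lower. An entry named FLT3LG (ENSSSCG00000034448) stood at 6537 to 8312 CPM in every class and pig and is treated as uncertain.

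Among cytokine receptors, IL21R was lower in NK cells in both comparisons, at 1.862 and 1.481 CPM against 11.20 and 17.93 CPM in CD8 αβ T cells (log2 -3.15 ± 0.50, adjusted p = 0.0489) and 11.56 and 15.75 CPM in γδ T cells (log2 -3.02 ± 0.51, adjusted p = 0.0457). IL7R, the receptor for the survival cytokine of T cells, stood at 5.586 and 0 CPM in NK cells against 21.98 and 23.90 CPM and 38.79 and 66.94 CPM (adjusted p = 0.107 and 0.0544; 0.0322 and 0.00889 with the block). IL2RB, the β chain for IL-2 and IL-15, stood at 298.9 and 296.7 CPM in NK cells, 174.6 and 146.7 CPM in CD8 αβ T cells and 154.0 and 47.74 CPM in γδ T cells, and IL12RB2, an IL-12 receptor chain, at 25.14 and 48.38 CPM, 6.634 and 8.217 CPM and 10.82 and 2.461 CPM. NK values of both lay above all T cell values. IL2RB passed with the block against γδ T cells (adjusted p = 0.0290) and IL12RB2 in both comparisons (adjusted p = 0.0317 and 0.0383). Of 14 receptors tested, 0 were higher and 1 lower in each comparison, and with the block 3 were higher and 2 lower than in CD8 αβ T cells and 3 and 3 than in γδ T cells.

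Of the 10 genes tested of S100 proteins, annexins and related proteins, LGALS1, galectin-1, was lower in both comparisons, at 164.8 and 120.5 CPM in NK cells against 435.0 and 413.6 CPM in CD8 αβ T cells (log2 -1.58 ± 0.19, adjusted p = 0.0272) and 590.7 and 603.4 CPM in γδ T cells (log2 -2.07 ± 0.20, adjusted p = 0.0143). S100A1 stood at 940.4 and 1015 CPM in NK cells and at most 191.3 CPM in T cells (adjusted p = 0.0593 and 0.0551; 0.00287 and 0.00335 with the block). Of the 13 cell cycle genes, 4 MHC class II genes and 13 interferon-stimulated genes, edgeR called 0 in either comparison. At an unadjusted p under 0.05 there were 2 cell cycle genes against CD8 αβ T cells, 1 of them called lower by DESeq2, and 0 of the other genes. Over all genes 1504 of 8313 reached this p against CD8 αβ T cells. With the block, 1 cell cycle gene was lower than in CD8 αβ T cells, and 1 interferon-stimulated gene was higher and 1 lower than in CD8 αβ T cells and 2 were higher than in γδ T cells. Of 12 tested genes of tissue residence and activation, RGS1, a regulator of chemokine receptor signals, was higher than in CD8 αβ T cells, at 82.87 and 85.91 against 29.44 and 18.92 CPM (log2 1.82 ± 0.25, adjusted p = 0.0325). By edgeR with the block CD69 was lower in both comparisons (adjusted p = 0.0349 and 0.0292) and CCR9 lower than in CD8 αβ T cells (adjusted p = 0.0417). Against γδ T cells edgeR without the block called 0 of the 12, 5 had an unadjusted p under 0.05, and DESeq2 called 1 higher and 2 lower. Of the 5 γδ T cell genes tested, 4 were lower than in γδ T cells, namely ID3, BLK, RHEX and GATA3.

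Beyond the lists, the genes with the largest called differences and at least 50 CPM in the higher class were named by rule. FGL2, a fibrinogen-like protein of lymphocytes, stood at 343.6 and 381.7 CPM in NK cells against 19.07 and 25.65 CPM in CD8 αβ T cells (16.1-fold, adjusted p = 0.00440) and 28.35 and 39.38 CPM in γδ T cells (10.7-fold, adjusted p = 0.00536). Of the genes described here, it alone kept its call in both comparisons under all 13 alternatives run for each, with adjusted p up to 0.0499 and 0.0448. GPR37, an orphan G protein-coupled receptor, stood at 137.8 and 310.1 CPM against 3.732 and 5.229 CPM (48.6-fold, adjusted p = 0.0106) and 4.476 and 7.383 CPM (38.4-fold, adjusted p = 0.0143). It lost its call against CD8 αβ T cells without those of pig 2 (adjusted p = 0.0765) and, against γδ T cells, when T cells were also required to carry CD2 and KLRK1 (adjusted p = 0.0652). An unnamed gene, ENSSSCG00000000639, stood at 196.5 and 552.0 CPM against at most 10.71 CPM in T cells (38.9-fold and 49.2-fold, adjusted p = 0.0173 and 0.0187), and kept its call under all 13 alternatives against γδ T cells. LY6D, a Ly6-family surface protein, and RFX2, a regulatory factor X gene, were also higher in both comparisons, LY6D by 26.6-fold and 8.91-fold and RFX2 by 19.1-fold and 12.9-fold. Of 10 genes named as higher in each comparison, PDGFA, XCL1, ITGAM and NFIL3 completed the list against CD8 αβ T cells with ENSSSCG00000024765, and DUSP6, GNLY, TESK2 and SPINT2 with the same unnamed gene against γδ T cells.

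Of the genes named as lower, 9 reached 50 CPM against CD8 αβ T cells. JAML, a junctional adhesion molecule of T cells, stood at 0.9311 and 3.950 CPM in NK cells against 55.56 and 74.95 CPM (22.8-fold lower, adjusted p = 0.0350). VIM, the intermediate filament vimentin, was 2.56-fold lower (adjusted p = 0.0173), and COX17 and ATP5MC1, both of mitochondrial respiration, were 2.85-fold and 2.15-fold lower (adjusted p = 0.0160 and 0.0380), with C12orf75, GLIPR2, CD5, CD6 and LGALS1 making up the rest. Against γδ T cells, the unnamed gene ENSSSCG00000032017 stood at 1.862 and 4.444 CPM in NK cells and 772.0 and 1301 CPM in γδ T cells (295-fold lower, adjusted p = 0.00144), and RHEX, a regulator of erythroid expansion, at 0 and 2.962 against 427.8 and 636.4 CPM (276-fold lower, adjusted p = 0.00643). Both kept their calls under all 13 alternatives. EVL, an actin regulator, CCR7, GPR183, CD5, TCF7 and ID3 and the unnamed ENSSSCG00000039658 and ENSSSCG00000017032 completed that list. Of the genes described as called, 1 of 28 against CD8 αβ T cells (FGL2) and 4 of 45 against γδ T cells (FGL2, ENSSSCG00000000639, ENSSSCG00000032017 and RHEX) kept their calls under all alternatives, and each of the others lost its call under at least 1.

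Within the NK gate, cells were not uniform. Clustering the 1087 members, without a test since every gene of these cells was used, gave 7 subclusters. Subcluster 1 held 493 cells, 193 in pig 1 and 300 in pig 2, with FGL2 at 580.2 CPM, S100A1 at 1472 CPM, CX3CR1 at 454.4 CPM and the highest GNLY level of the 7, 54740 CPM. Subcluster 2, with 274 cells (24.2% and 25.8%), was close to it, with GNLY at 45080 CPM and CX3CR1 at 435.3 CPM, and was led by TRIM8, STRBP and DHX58. Together these gave most members of each pig.

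Subcluster 4 held 99 cells, 13.1% of members in pig 1 and 6.61% in pig 2, and was led by SH2D1A, an adaptor of SLAM receptors, EOMES, SLAMF7, IL18R1 and SIT1, with GZMK, CXCR3 and NCR1 among its 15 leading genes. Its GNLY level was 13080 CPM and its CX3CR1 level 118.5 CPM, the lowest of the 5 largest subclusters, while KLRB1 at 1976 CPM, KLRC1 at 958.2 CPM and NCR1 at 270.0 CPM were the highest of these 5. S1PR1 stood at 112.0 CPM there, against 31.78 CPM or less in subclusters 1, 2, 3 and 5. CD3G, at 283.2 CPM, was the lowest of these 5 and compares with 1011 CPM in subcluster 1. CD5 stood at 9.878 CPM there, between the 5.552 CPM of subcluster 1 and the 15.20 CPM of subcluster 2. NCR3, another natural cytotoxicity receptor, ran against NCR1, at 55.98 CPM there against 178.6 CPM in subcluster 1 and 131.3 CPM in subcluster 2.

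Subcluster 3 held 125 cells (8.55% of members in pig 1 and 13.4% in pig 2) with genes of dividing cells: PCLAF, a PCNA clamp factor, stood at 927.1 CPM there and at most 12.96 CPM in subclusters 1, 2, 4, 5, 6 and 7, and TOP2A, a topoisomerase of mitosis, at 469.1 CPM. The cells of this subcluster were the deepest of the 5 largest, with a median of 4372 UMIs. Subcluster 5 (68 cells) carried platelet genes, with PPBP at 1276 CPM and MYL9 at 698.9 CPM. Subcluster 6 (16 cells, 12 from pig 1) held 391400 CPM of HBB. Subcluster 7 (12 cells) carried myeloid genes, with LYZ at 3648 CPM and CST3 at 4186 CPM, GNLY at 1590 CPM and NCR1 and KLRC1 at 0 CPM. The last 3 subclusters were 96 of the 1087 members. After cells with PPBP, LYZ or HBB were removed from every class, an alternative chosen after seeing the data, 90 genes were called against CD8 αβ T cells and 173 against γδ T cells.

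**Figure D4:**
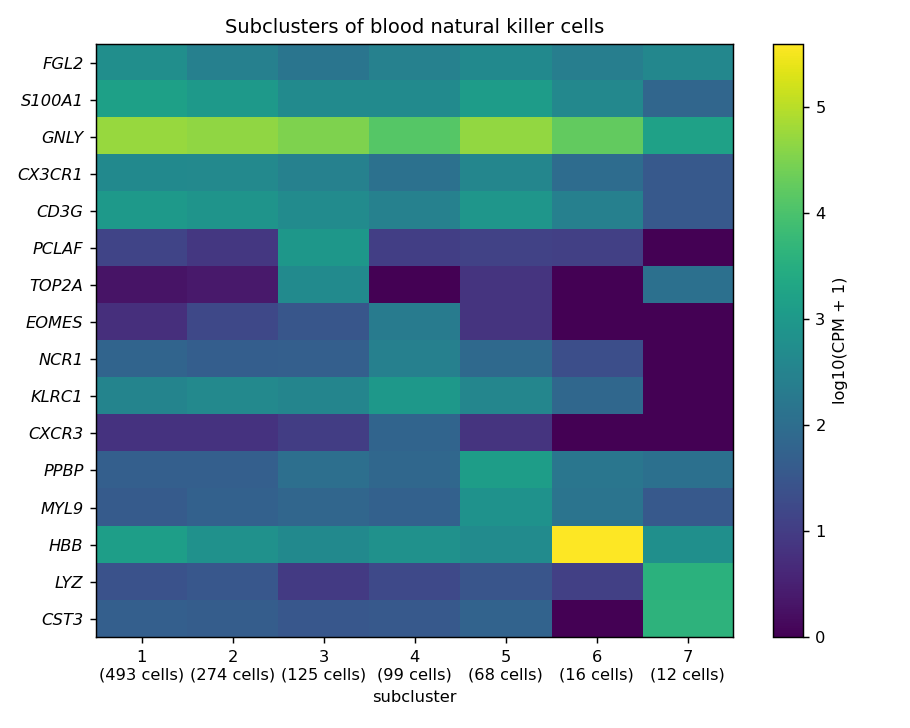
Level of 16 genes (rows) in the 7 subclusters of blood NK cells (columns, with their cell numbers) as log10(CPM + 1) of summed counts of both pigs. GNLY is high in subclusters 1 to 6, EOMES, NCR1, KLRC1 and CXCR3 peak in subcluster 4, PCLAF and TOP2A in subcluster 3, and PPBP, HBB and LYZ in subclusters 5, 6 and 7.

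Ileal cells that met the same gate were far from the blood cells in expression. Among the 6 ileal libraries 1290 cells met it, 24 and 95 in PP, 89 and 655 in non-PP and 299 and 128 in whole ileum of pig 1 and pig 2, with 50.8% of them from the non-PP library of pig 2. Counts summed per pig over the 3 dissections were compared with blood by edgeR over 7609 genes. In blood 904 genes were higher and 813 lower, 1717 in all (22.6% of genes tested; 11.9% higher, 10.7% lower). With the pig as a block 1121 were higher and 1036 lower. Without the library labelled whole ileum pig 1, 704 were called, 701 of them among the 1717, with non-PP libraries alone 699, and without all ileal cells of pig 2 744. These ileal cells are described by their gate and not as NK cells, because CD3G stood at 1965 and 2107 CPM in them and CD3D at 663.1 and 675.9 CPM, against 677.9 and 792.1 CPM and 133.3 and 199.0 CPM in blood (log2 -1.47 ± 0.15, adjusted p = 0.000712, and log2 -2.00 ± 0.21, adjusted p = 0.000760). The paper reports CD3G in some ileal innate lymphoid cells that largely lacked CD3E, so CD3G alone leaves the identity of these cells open. With CD3D, CD5 and CD6 at 0 added to the gate, 284 of the 1290 ileal cells were left (22.0%), and 735 genes were called.

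Receptors of circulation marked the blood cells. CX3CR1 stood at 373.5 and 367.0 CPM in blood and 2.583 and 0.3893 CPM in ileum (log2 8.31 ± 0.39, adjusted p = 2.75e-05; log2 9.74 without the library labelled whole ileum pig 1, which leaves 1 UMI in ileum). S1PR5 stood at 283.0 and 279.7 CPM in blood and 3.444 and 2.725 CPM in ileum (log2 6.53 ± 0.22, adjusted p = 1.30e-05). KLF2, the factor that drives sphingosine phosphate receptors and homing genes, stood at 537.9 and 607.3 CPM in blood and 10.33 and 8.176 CPM in ileum (log2 5.98 ± 0.21, adjusted p = 1.30e-05). All 3 separated blood from ileum in both pigs, and over the 6 ileal libraries KLF2 ranged from 3.40 to 40.8 CPM with a median of 11.6, before TMM scaling, against 506.0 and 591.2 CPM in the blood libraries. ITGB2, the β2 integrin chain, and ITGAM were higher in blood as well (log2 5.48 ± 0.32, adjusted p = 5.91e-05, and log2 4.40 ± 0.23, adjusted p = 3.76e-05). Of 21 trafficking genes tested, 13 were higher and 5 lower in blood (12 and 5 without the library labelled whole ileum pig 1). CX3CR1 and S1PR5, with at most 7 UMIs in each ileal sum, passed the filter on low counts through the blood sums. Their direction was thus fixed by the filter, so their p-values and their part in this count are a description alone. All of S100A4, S100A1, S100A13 and 5 others of the 10 genes of the S100 and annexin list were higher (7 without that library), S100A4 at 1471 and 1223 against 37.89 and 30.37 CPM (log2 5.32 ± 0.21, adjusted p = 1.62e-05). The difference of S100A1 went from log2 5.82 to 4.92 without that library.

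NK receptors divided between the tissues. HCST stood at 682.8 and 732.4 CPM in blood and 68.89 and 52.56 CPM in ileum (log2 3.56 ± 0.19, adjusted p = 3.97e-05; log2 2.97 without the library labelled whole ileum pig 1). KLRG1 stood at 497.0 and 386.4 CPM and 7.750 and 1.557 CPM (log2 6.88 ± 0.47, adjusted p = 0.000125), and FCGR3A at 2963 and 2209 CPM and 443.5 and 325.9 CPM (log2 2.75 ± 0.22, adjusted p = 0.000251; log2 2.04, adjusted p = 0.0415 without that library). These 3 kept their calls in all 13 alternatives, whole ileum pig 1 left out included. NCR1 stood at 59.33 and 85.74 CPM in blood and 0.8611 and 4.672 CPM in ileum (log2 4.41 ± 0.43, adjusted p = 0.000559). KLRG1 and NCR1 passed the filter on low counts only with the blood sums, so their direction and p-values are a description alone. By contrast, CD244, the SLAM-family receptor 2B4, was lower in blood, at 160.5 and 149.0 against 318.6 and 393.6 CPM (log2 -1.21 ± 0.17, adjusted p = 0.00271; 0.0586, not called, without the library labelled whole ileum pig 1), as was CD96, at 55.44 and 41.85 against 274.7 and 264.7 CPM (log2 -2.49 ± 0.19, adjusted p = 0.000177). Of 14 activating receptors and adaptors tested, 8 were higher and 3 lower in blood (6 and 2 without that library). FCER1G lay close in both tissues, at 1382 and 1435 CPM in blood and 1469 to 1763 CPM in the 6 ileal libraries before TMM scaling (log2 -0.17 ± 0.13, adjusted p = 0.407).

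The killing genes split. GZMB stood at 2189 and 2053 CPM in blood and 25100 and 26330 CPM in ileum (log2 -3.60 ± 0.13, adjusted p = 1.30e-05), and both GZMA entries were lower in blood, ENSSSCG00000016902 at 25.29 and 11.23 against 16240 and 18160 CPM (log2 -9.94 ± 0.41, adjusted p = 1.62e-05). CTSW, GZMM and STX11 were higher in blood, CTSW at 2208 and 1991 against 447.8 and 357.0 CPM (log2 2.39 ± 0.17, adjusted p = 0.000161) and GZMM at 221.8 and 157.7 against 12.06 and 4.283 CPM (log2 4.73 ± 0.38, adjusted p = 0.000258; log2 3.94, adjusted p = 0.0276 without the library labelled whole ileum pig 1). GNLY and PRF1 were not called (log2 0.18 ± 0.17, adjusted p = 0.480, and log2 -0.16 ± 0.23, adjusted p = 0.659), and GNLY ranged from 15560 to 40130 CPM over the 6 ileal libraries with 31220 and 46050 CPM in blood before TMM scaling. Of the 20 genes tested, 6 were higher and 6 lower in blood (4 and 5 without the library labelled whole ileum pig 1).

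Most tested genes of tissue residence and activation ran opposite to the circulation genes. ITGAE (CD103), which binds E-cadherin of the epithelium, stood at 25.29 and 19.90 CPM in blood and 470.2 and 449.3 CPM in ileum (log2 -4.37 ± 0.19, adjusted p = 2.41e-05). RGS1 stood at 86.56 and 88.80 CPM and 1429 and 1321 CPM (log2 -3.97 ± 0.16, adjusted p = 1.62e-05), and CD69, which holds cells in tissue, at 11.67 and 6.635 CPM and 246.3 and 174.4 CPM (log2 -4.60 ± 0.31, adjusted p = 0.000112). In every ileal library ITGAE stood at 326.4 CPM or more before TMM scaling, against 23.79 and 19.38 CPM in blood. Of 17 genes of tissue residence and activation tested, 2 were higher in blood, DUSP2 and the integrin gene ITGA1, and 14 lower (0 and 11 without the library labelled whole ileum pig 1). The immediate early genes FOS, JUN, EGR1, NR4A1 and NR4A2 were among the 14. Without that library EGR1 and NR4A1 lost their call (adjusted p = 0.113 and 0.0560). The difference of FOS went from log2 -3.36 to -4.41 and that of EGR1 from log2 -3.09 to -4.27. The ileal cells, unlike blood cells, had gone through enzymatic release, whose part in these values cannot be told apart from tissue.

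IL22, a cytokine of group 3 innate lymphoid cells, had 0 UMIs in blood NK cells of both pigs and 414.2 and 181.4 CPM in ileum, at least 142-fold more in pig 1 and 118.5-fold more in pig 2 than a floor of 3 counts per blood sum. The pig 1 level and bound include the library labelled whole ileum pig 1. Without it, the fitted difference of IL22 went from log2 -11.95 to -12.73. Its level reached 3876 and 925.1 CPM in the PP libraries and ranged down to 65.41 CPM. KIT, a receptor of the same cells, was lower in blood, at 0.9726 and 0.5104 against 67.17 and 65.02 CPM, on 1 UMI in each blood sum (adjusted p = 5.90e-05). Of the 10 listed group 3 innate lymphoid cell genes, 4 passed the filter on low counts, and all 4 were lower in blood (3 without the library labelled whole ileum pig 1). IL22, KIT and AHR, with at most 3 UMIs in each blood sum, passed that filter through the ileal sums. Their direction was thus fixed by the filter, so this count and the p-value of KIT are a description alone. Transcription factors included ZNF683, at 383.2 and 296.0 CPM in blood and 2.583 and 5.451 CPM in ileum (log2 6.22 ± 0.30, adjusted p = 2.79e-05), ZEB2 (log2 5.49 ± 0.31, adjusted p = 4.62e-05) and TBX21 (log2 2.98 ± 0.20, adjusted p = 0.000121), all higher in blood, and NFIL3, lower in blood (log2 -1.57 ± 0.17, adjusted p = 0.000950). ZNF683, at 5.451 CPM or less in ileum, passed the filter through the blood sums, so its p-value is a description too. Of 24 factors tested, 10 were higher and 7 lower in blood (6 and 5 of 23 without that library). Of 13 cell cycle genes, 7 were higher in blood, but 1 without that library and 1 with non-PP libraries alone (12 with the block).

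**Figure D5:**
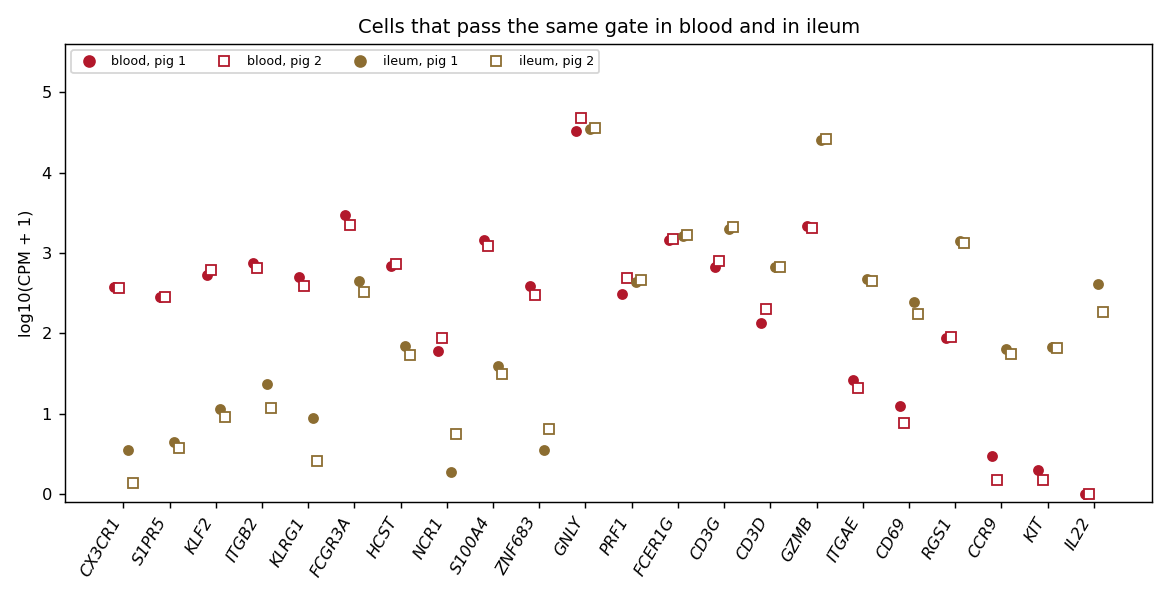
Level of 22 genes (x axis) as log10(CPM + 1) in cells that met the NK gate in blood (red) and ileum (brown, 3 dissections summed), with filled circles for pig 1 and open squares for pig 2. CX3CR1, S1PR5, KLF2 and KLRG1 lie far higher in blood, GZMB, ITGAE, CD69 and RGS1 higher in ileum, and GNLY, PRF1 and FCER1G side by side.

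The genes named by rule between the tissues included transcripts of other cells. PPBP stood at 85.59 and 169.5 CPM in blood and 0 UMIs in ileum, at least 33.1-fold more in pig 1 and 145-fold in pig 2 than a floor of 3 counts per ileal sum. In ileum TFF3, FABP6, KRT8 and GCG, genes of intestinal epithelium and its hormone cells, were named with IL22 and the orphan receptor gene GPR82. CDH17, also a gene of intestinal epithelium, was named at 245.4 and 266.3 CPM in ileum, and its cell of origin was not tested. Without the library labelled whole ileum pig 1, the fitted difference of TFF3 went from log2 -13.98 to -15.71 and that of FABP6 from -10.11 to -11.85. Those of KRT8 and GPR82 went from log2 -10.28 to -11.68 and from -11.37 to -10.76. The 8 epithelial markers summed to 1.83 and 0.497 CPM in blood NK cells, where 7 of the 8 were at 0 in both pigs, and to 11560 CPM in the non-PP library of pig 1, where FABP6 made up 10060 CPM. The part of epithelial transcripts in the ileal results was not tested. On the blood side the named genes were THEMIS2, a signalling gene at 127.4 and 113.3 CPM in blood with 1 UMI in ileum, CX3CR1, KLRG1, S1PR5, LY6D, RFX2, PTH1R and 2 unnamed genes besides PPBP. The difference of THEMIS2 went from log2 8.44 to 10.46 without the library labelled whole ileum pig 1. LY6D, at 151.7 and 247.0 CPM in blood, had 3 UMIs in ileum, and RFX2, at 96.29 and 81.15 CPM, also had 3.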

How the data were processed

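Raw UMI counts of 8 droplet libraries (2 pigs, 4 each), deposited by the authors, were used. The authors made these counts with CellRanger against Sscrofa11.1 and a modified annotation, before they removed ambient RNA, poor cells and doublets, which leaves free RNA in all counts. The submitters' processing notes list Cell Ranger 4.0.6. The 4 runs listed for each library were taken as 1 library. All columns were used (0 left out). Gene symbols came from the files (17733), a supplied name table (977) and the paper's list (11). Gene positions are those of RefSeq for Sscrofa11.1.

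Cells were gated as described, and doublets were scored with Scrublet (calling 2.79% and 2.72% of blood cells) but kept. Cells with CD3E, CD8B and TRDC together (23 and 32) entered neither T cell class. B cells had at least 2 CD79B UMIs, and monocytes a SIRPA UMI with CD14 or LYZ. Counts were summed per pig and class and tested with edgeR 4.0.16 (R 4.3.3; filterByExpr, TMM, glmQLFit, glmQLFTest), and the code was tested on simulated data: of 4-fold changes in 100 genes, 97% were recovered against CD8 αβ T cells (8256 genes), 94% against γδ T cells (8193) and 97% between tissues (7442), and of 2-fold changes 25%, 19% and 41%. The simulation gave every gene the same spread, unlike the data, so these rates can overstate what was detectable here. An exact permutation of 2 against 2 sums gives no p below 0.333. Alternatives were DESeq2 1.42.0, no filter, a pig block, each sum left out, doublets removed (score above 0.25), stricter or matched gates, and other ileal sums. Same-pig sums deviated together (correlations of 0.402, 0.320 and 0.553 between blood classes over 8313 genes, 0.105 between tissues over 7609), and the blood sums of a pig come from the same animal. For the ileal sums this holds by their labels alone, since 1 library went against its label. Subclusters used scanpy 1.11.5 and leidenalg 0.10.2 (1000 variable genes, 20 components, 15 neighbours, resolution 0.6), with leading genes ranked by ratio after adding 10 CPM. Members, lists and tests were chosen with earlier results of these data known. Named genes were all genes of the lists described, and in each comparison and direction the 10 with the largest called change that moved the same way in both pigs, with at least 50 CPM in the higher class, without gate, mitochondrial or Y-linked genes.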

Additional observations from a re-analysis of the deposited data

Results flagged for a closer look

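EIF1AY, a gene of the Y chromosome outside every comparison above, had 843 UMIs among 5789 cells of the library labelled whole ileum pig 1 (40.8 CPM), although pig 1 is labelled female. The other libraries of pig 1 held 0 (PBMC), 0 (PP) and 2 (non-PP) UMIs, and those of pig 2 held 37.8 to 42.3 CPM. The library entered the ileal sums of pig 1, and the number of genes called between blood and ileum is 704 without it and 1717 with it.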

How the results depend on the processing

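Of 2994 values of described genes under alternatives, 2367 kept their direction and their side of the threshold, 287 were no longer called, 338 became called and 2 changed sign: CD3D against CD8 αβ T cells with CD3D at 0 added to the gate (log2 -11.31, set by that gate) and BLK against γδ T cells with the matched gate (log2 0.056). Genes called against CD8 αβ T cells, γδ T cells and between tissues (74, 124 and 1717) were 321, 333 and 1029 by DESeq2. Without a filter on low counts 917 and 878 were called in the 2 blood comparisons, and 669 and 633 with the replicate block, which pairs sums labelled as the same pig and gave 2157 between tissues, where 1 ileal library went against its label. With T cells gated on CD2 and KLRK1 too, 128 and 68 were called. Between tissues the stricter gate gave 735, leaving out the library labelled whole ileum pig 1 gave 704, and non-PP libraries alone 699. Leaving out 1 sum gave 4 to 356, 8 to 386 and 744 to 1690, with the lone sum of a class assumed to vary like the others. Beside these, doublet removal, each ileal library as its own sum and removal of cells with PPBP, LYZ or HBB moved no count by over 1.5 times. Where a value moved, the cause was not tested unless the setting's construction shows it.

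The share of blood cells in the gate was 4.69% and 5.63% in pig 1 and pig 2 with the stricter gate, 9.17% and 15.3% without the KLRK1 criterion, and 3.38% and 7.44% at a minimum of 2500 UMIs. Without thinning, shares of NK cells with a UMI were 96.4% and 98.4% for FCGR3A, 63.4% and 89.0% for TYROBP, 51.5% and 61.3% for CX3CR1 and 71.5% and 81.8% for CD3G. Thinned to 2500 UMIs, which left 142 and 394 cells, they were 88.7% and 95.9% for FCGR3A, 52.8% and 86.6% for TYROBP, 43.7% and 51.8% for CX3CR1 and 61.3% and 74.9% for CD3G. With 2 pigs and 1092958 UMIs in the smallest blood sum, 2-fold changes were mostly below detection. Larger differences could also go uncalled where the pigs differed, as for KLRB1 against CD8 αβ T cells (log2 4.80, edgeR adjusted p = 0.0747).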
